A study of Diospyros kaki with 21 samples.

Results

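The xyloglucan endotransglucosylase/hydrolases (XTHs) of 'Jingmianshi' persimmon were examined in the fruit flesh transcriptome. A unigene, that is, a transcript assembled from the reads without a genome, was taken as a member if its Pfam annotation held the XTH C-terminal domain PF06955 or if the name of its best hit in the NR protein database contained "xyloglucan endotransglucosylase". This rule gave 128 of 261970 unigenes. No expression value was used to choose them.

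Jingmianshi is an astringent cultivar of Diospyros kaki, and the study asked which genes accompany the softening that follows removal of astringency. The CO2+1-MCP group was mature fruit that spent 1 d sealed with high CO2 together with 1-MCP, a gas that blocks ethylene receptors. The CO2 group spent that day with high CO2 alone, and the control group (CK) was sealed for 1 d without either gas. All fruit were then kept in air. Flesh was sampled at 1 and 4 d in storage in each group and at 0 d in CK, with 3 libraries (A, B and C) for each of the 7 groups. Each treatment was applied to its own batch of fruit, so an effect of the batch or container and an effect of the treatment cannot be told apart. Where nothing says that the 3 libraries came from separate lots of fruit, p-values measure only the spread between these libraries.

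The primary wall of a fruit cell is a network of cellulose microfibrils coated and joined by xyloglucan and embedded in pectin. XTHs belong to glycoside hydrolase family GH16. They cut a xyloglucan backbone and either join the new end to another xyloglucan chain, which rearranges the wall without net loss of polymer, or pass it to water, which shortens the chain. In Arabidopsis thaliana the enzymes of groups I and II act mainly as endotransglucosylases, group III-A contains AtXTH31, for which xyloglucan hydrolase activity is known, and group III-B contains further endotransglucosylases. XTH genes are known in many fruits for expression during growth as well as during ripening.

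Of the 128 members, 105 carried PF06955, 67 had the NR name and 44 had both. An XTH name in NR, NT, Swiss-Prot or KEGG orthology was found for 97. The other 31 had no XTH name. Among them were 8 WVD2-like proteins, 6 EAF1 proteins, 5 pentatricopeptide proteins and 5 unigenes without an NR hit. None of these 31 carried the GH16 catalytic domain PF00722. By name the label therefore held for 97 members, of which 79 carried PF00722. The highest value of any of the other 31 was 29.1 FPKM. FPKM are fragments scaled to transcript length and to the number of fragments in the library, a level corrected for length and depth. A persimmon XTH name was carried by 58 members over 11 names, led by DkXTH5 with 12 unigenes, DkXTH10 and DkXTH12 with 9 each and DkXTH9 with 8. Several unigenes of a name can be pieces or alleles of one gene, and reads could have been divided among them. By best Swiss-Prot hit, 9 members fell in Arabidopsis group I, 37 in group II, 15 in group III-A and 23 in group III-B, while 11 had a soybean XTH as best hit. Lengths ran from 202 to 7737 bases with a median of 1238 bases. In 6 members no read was counted in any library, and 40 members reached a mean of at least 10 FPKM in a group.

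The 21 libraries held between 14644843 and 24943140 estimated counts. The single most abundant unigene took 15.6% to 21.4% of the counts in the CK libraries, against 1.43% to 5.36% in the libraries of the CO2+1-MCP and CO2 groups, so that FPKM levels of CK were measured beside 1 dominant transcript. The fitted fold changes below were scaled by TMM factors. Within a group, the lowest rank correlation of a library with another ran between 0.668 and 0.850 across unigenes, and the lowest belonged to CO2+1-MCP 4 d replicates B and C. Unigenes named as chlorophyll a-b binding proteins, markers of green tissue that a flesh sample could hold, summed to 39.9 to 225 FPKM in CO2+1-MCP fruit and 26.8 to 51.7 FPKM in CO2 fruit, against 63.8 to 75.6 FPKM in CK fruit at 4 d. At 1 d they summed to 86.4 to 142 FPKM in CO2+1-MCP fruit and 98.5 to 123 FPKM in CO2 fruit, against 75.7 to 105 FPKM in CK fruit. At 4 d 1 CO2+1-MCP library thus stood far above the rest, and the part of green tissue in the results below was not tested.

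XTH transcripts were most abundant in CO2 fruit at 4 d, where DkXTH10 made up most of the sum. The members summed to 2887 ± 459 FPKM in CO2+1-MCP fruit, 11920 ± 5920 FPKM in CO2 fruit and 1806 ± 82.7 FPKM in CK fruit at 4 d (SD, n = 3 each). They took 0.221% of the counts in CO2+1-MCP fruit, 1.04% in CO2 fruit and 0.148% in CK fruit. At 1 d the sums were 3090 ± 829 FPKM in CO2+1-MCP fruit, 3041 ± 113 FPKM in CO2 fruit and 1792 ± 251 FPKM in CK fruit (SD, n = 3 each), and CK fruit at 0 d held 1769 ± 96.0 FPKM. The shares of the counts at 1 d were 0.170% in CO2+1-MCP fruit, 0.159% in CO2 fruit and 0.127% in CK fruit. CK fruit at 0 d had 0.146%. At 1 d these shares differed less between the treatments and CK than the FPKM sums did, while at 4 d those of CO2 and CK fruit did not. Both measures are scaled to the whole library, so in CK both include the dominant transcript in their total.

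**Figure D1:**
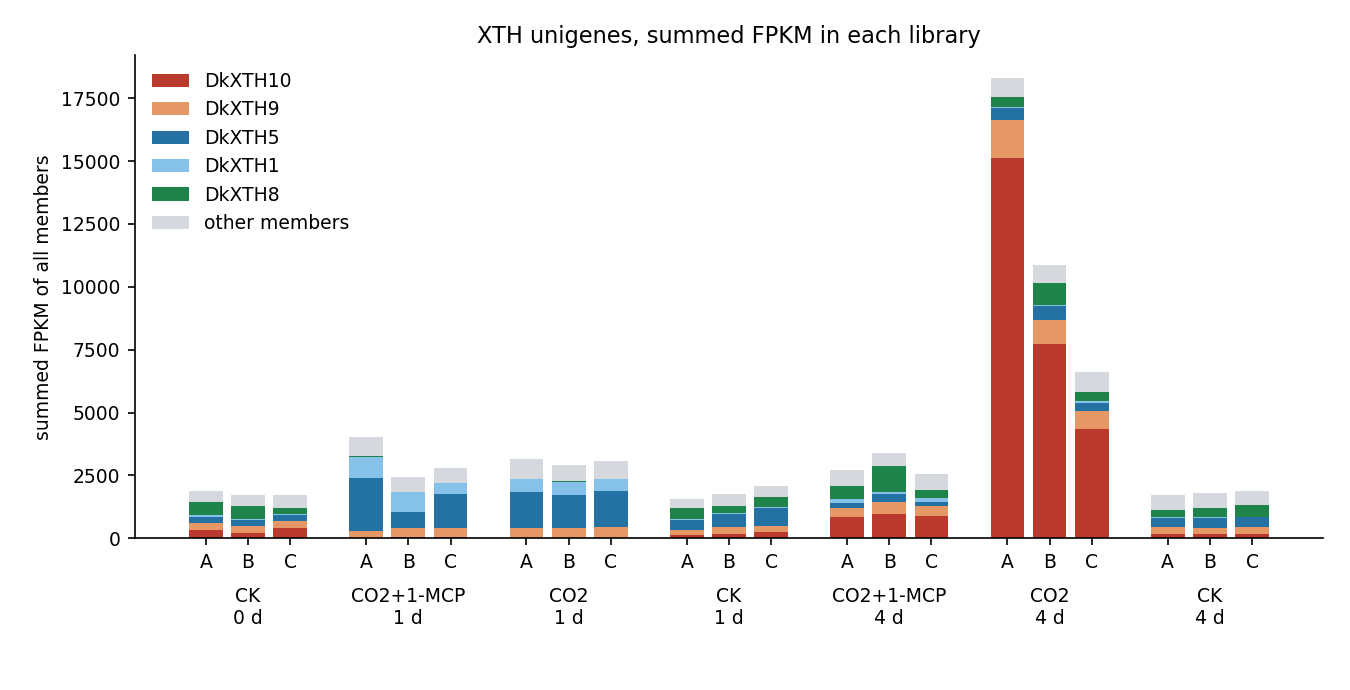
Summed FPKM of the 128 XTH members in each of the 21 libraries (x axis: libraries A, B and C of each group; y axis: summed FPKM), stacked by persimmon XTH name. The 3 CO2 4 d libraries stood between 6599 and 18300 FPKM, above every other library, and DkXTH10 filled most of each of those bars.

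The make-up of the pool differed between groups. DkXTH10 held 65.9% to 82.6% of the XTH sum in the CO2 4 d libraries and 27.9% to 34.3% in the CO2+1-MCP 4 d libraries, against 8.77% to 10.8% in the CK 4 d libraries. At 1 d it was a minor form, with 0.417% to 1.504% in CO2+1-MCP fruit and 0.650% to 0.829% in CO2 fruit, against 8.84% to 13.0% in CK fruit. DkXTH5, a group II form, had the largest mean share of the FPKM sum among the names at 1 d. Its mean was 42.9% in CO2+1-MCP fruit and 45.6% in CO2 fruit, against 29.1% in CK fruit. In FPKM a short unigene weighs more than its counts, and several DkXTH5 unigenes are short. Shares of the counts by name were not computed. DkXTH1, whose closest Swiss-Prot entry is a soybean XTH, took a mean of 22.6% in CO2+1-MCP fruit and 16.8% in CO2 fruit, against 3.21% in CK fruit at 1 d.

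The effect of CO2 at 4 d was examined by comparing CO2 fruit with CK fruit. A small set of XTHs was higher in CO2 fruit: both tested unigenes of DkXTH10, 1 unigene of DkXTH11, 3 of DkXTH9, and DkXTH6 and DkXTH4. DkXTH10 is the persimmon form closest to the Arabidopsis group III-A enzymes AtXTH31 and AtXTH32, DkXTH11 is closest to AtXTH30 of group III-B, DkXTH9 to group II, and DkXTH6 to AtXTH9 of group I. A member was called where the edgeR quasi-likelihood test gave an adjusted p below 0.05 over all unigenes tested and the fold change exceeded 5. Of 73 members tested, 8 were called higher, against 2.81% of all unigenes tested, and 0 were called lower, against 1.07%. At an unadjusted p below 0.05 there were 29 members in both directions together, beside 15025 of the 63046 unigenes tested. DESeq2 called 10 members higher and 0 lower, beside 2557 unigenes higher and 1398 lower. The median log2 fold change of the tested members was 0.01, against -0.08 for all unigenes. It was 0.31 over the 61 tested members with an XTH name and -1.11 over the 12 without one.

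DkXTH10 (Cluster-16487.115103) measured 13922, 6962 and 3783 FPKM in CO2 fruit, against 134, 130 and 123 FPKM in CK fruit at 4 d. The CO2 libraries differed by several fold among themselves, yet the lowest stood far above every CK library. Its fold change was 73.0 (log2 6.19 ± 0.72 SE, edgeR adjusted p = 0.0216). A short second unigene of the name, Cluster-16487.128598 of 272 bases, measured 1189, 756 and 568 FPKM in CO2 fruit, against 51.0, 41.9 and 42.9 FPKM in CK fruit (log2 4.33 ± 0.49 SE, edgeR adjusted p = 0.0216). The order of the 3 CO2 libraries was the same in both unigenes.

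DkXTH11 (Cluster-16487.128865) measured 121, 64.4 and 27.6 FPKM in CO2 fruit, against 2.50, 2.29 and 2.96 FPKM in CK fruit (log2 4.98 ± 0.72 SE, edgeR adjusted p = 0.0247). DkXTH6 (Cluster-16487.180837) measured 22.8, 21.9 and 19.0 FPKM in CO2 fruit, against 2.04, 3.78 and 2.89 FPKM in CK fruit (log2 2.96 ± 0.36 SE, edgeR adjusted p = 0.0219). The CO2 libraries lay close together for DkXTH6 and far apart for DkXTH11. DkXTH4 (Cluster-16487.93331), like DkXTH1 closest to a soybean XTH, measured 21.2, 35.7 and 60.5 FPKM in CO2 fruit, against 6.19, 7.23 and 7.14 FPKM in CK fruit (log2 2.51 ± 0.30 SE, edgeR adjusted p = 0.0217). Here replicate C was the highest of the CO2 libraries, whereas it was the lowest for DkXTH10 and DkXTH11.

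DkXTH9 was a more abundant form with a smaller fold change. Its main unigene, Cluster-16487.110874, measured 708, 417 and 280 FPKM in CO2 fruit, against 112, 123 and 115 FPKM in CK fruit. The groups did not overlap, but its fold change of 4.51 (log2 2.17 ± 0.47 SE, edgeR adjusted p = 0.0472) lay under the limit of 5. A further 3 DkXTH9 unigenes, each under 600 bases, passed both limits, with log2 fold changes of 2.49 for Cluster-16487.102208, 2.58 for Cluster-16487.124358 and 2.60 for Cluster-16487.102209. DkXTH1 (Cluster-16487.95220) was also higher in CO2 fruit by a small step, at 26.2, 45.0 and 60.1 FPKM against 19.4, 20.2 and 18.8 FPKM in CK fruit (log2 1.19 ± 0.23 SE, edgeR adjusted p = 0.0380). In CK fruit the same unigene was lower at 4 d than at 0 d (log2 -1.91 ± 0.13 SE, edgeR adjusted p = 0.00465). The DkXTH1 unigenes summed to a mean of 49.1 FPKM in CO2 fruit at 4 d beside 77.2 FPKM in CK fruit at 0 d, a pair for which no test was made.

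Other forms did not follow. DkXTH12 (Cluster-16487.95590), a group II form, was lower by a small step, at 15.2, 16.4 and 18.1 FPKM in CO2 fruit against 35.4, 33.8 and 32.8 FPKM in CK fruit (log2 -0.96 ± 0.17 SE, edgeR adjusted p = 0.0323). The 9 tested unigenes of DkXTH5 had a median log2 fold change of 0.28 and none was called by edgeR. DkXTH8 (Cluster-16487.110362) had a log2 fold change of 0.72 ± 0.25 SE (edgeR adjusted p = 0.144), and the abundant AtXTH30-like unigene Cluster-16487.111686 one of 0.28 ± 0.16 SE (edgeR adjusted p = 0.337).

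The number called at 4 d depended on single libraries. It was 0 without CO2 4 d replicate B or without any 1 of the CK 4 d libraries, 5 without CO2 4 d replicate A and 9 without replicate C. The log2 fold change of DkXTH10 lay between 5.42 without CO2 4 d replicate A and 6.61 without replicate C in these fits. In the fit of all 6 libraries the lowest edgeR adjusted p over all unigenes was 0.0183. Counts over all unigenes are not given for these fits or for those below with 1 library left out. Whether such drops were particular to the XTHs therefore cannot be told from them.

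**Figure D2:**
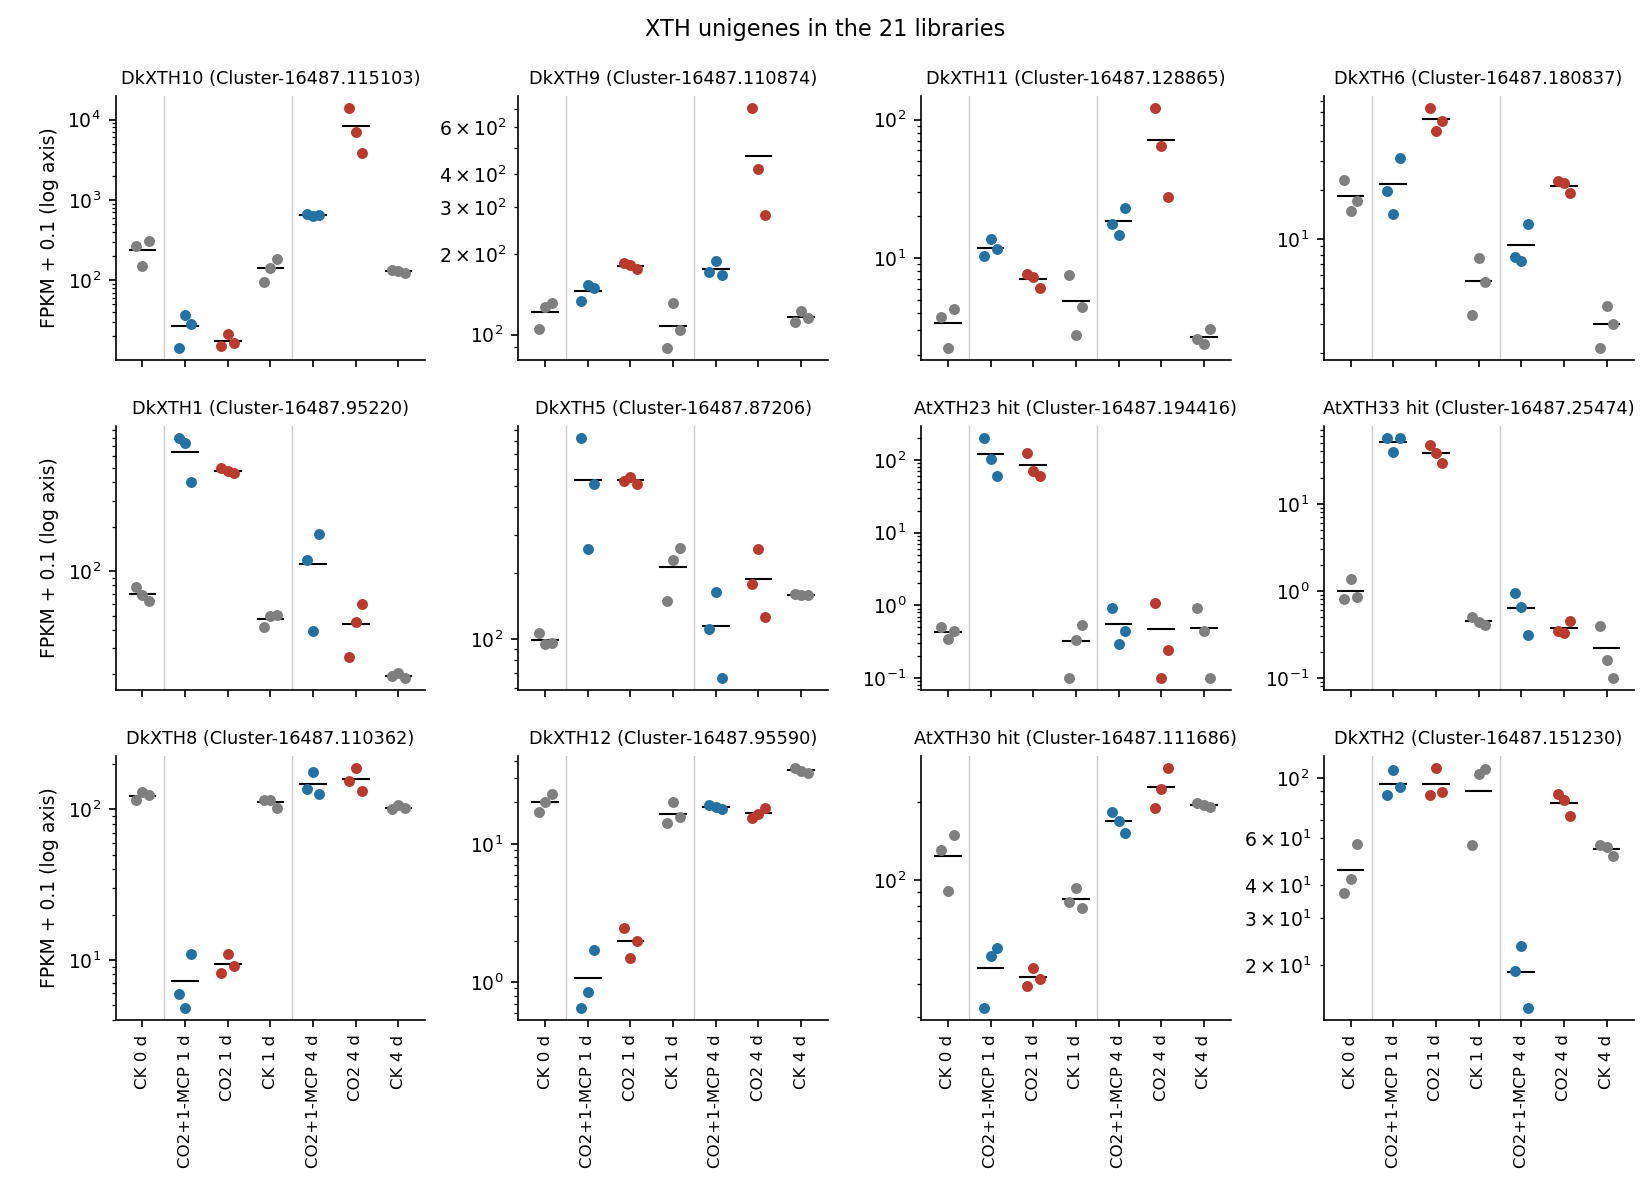
FPKM + 0.1 (y axis, log scale, own range in each panel) of 12 XTH unigenes in the 21 libraries, with CK 0 d at the left and then CO2+1-MCP, CO2 and CK at 1 d and at 4 d. Points are libraries (blue CO2+1-MCP, red CO2, grey CK) and bars are group means, and DkXTH10 reached 3783 to 13922 FPKM in CO2 4 d fruit against 123 to 134 FPKM in CK 4 d fruit.

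The effect of 1-MCP at 4 d was examined by comparing CO2+1-MCP fruit with CO2 fruit. DkXTH10, DkXTH2, DkXTH11, DkXTH9 and DkXTH6 were at lower levels in CO2+1-MCP fruit, and DkXTH1 and DkXTH4 at higher mean levels, but edgeR called no member. The counts were 0 higher and 0 lower of 71 tested, and the same fit called 0% of all unigenes higher and 0% lower, the lowest adjusted p of a member being 0.159. At an unadjusted p below 0.05 there were 14 members, beside 3883 of the 62228 unigenes tested. DESeq2 called 3 members lower, against 1.87% of all unigenes tested. An edgeR fit over all 7 groups, which pools the spread of 21 libraries, called 3 of 96 members lower, against 0.867% of all unigenes tested. The median log2 fold change was -0.23 over the members and 0.09 over all unigenes.

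DkXTH10 (Cluster-16487.115103) measured 666, 637 and 641 FPKM in CO2+1-MCP fruit, against 13922, 6962 and 3783 FPKM in CO2 fruit. The CO2+1-MCP libraries were almost equal and lay well below the lowest CO2 library. The log2 fold change was -3.91 ± 0.62 SE (edgeR unadjusted p = 0.000492, adjusted p = 0.159). The fit over all 7 groups gave an adjusted p of 0.000450 in edgeR, and DESeq2 gave 1.84e-07.

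DkXTH2 (Cluster-16487.151230), closest to a soybean XTH, measured 18.9, 23.6 and 13.8 FPKM in CO2+1-MCP fruit, against 87.5, 83.0 and 72.4 FPKM in CO2 fruit (log2 -2.26 ± 0.37 SE, edgeR adjusted p = 0.164, and 0.000416 over all 7 groups). CK fruit at 4 d held 56.1, 55.2 and 51.3 FPKM, so the CO2+1-MCP libraries were also the lowest of the day. DkXTH11 (Cluster-16487.128865) measured 17.6, 14.6 and 23.0 FPKM in CO2+1-MCP fruit, against 121, 64.4 and 27.6 FPKM in CO2 fruit (log2 -2.22 ± 0.62 SE, edgeR adjusted p = 0.384, and 0.0211 over all 7 groups). The 3 members called by edgeR over all 7 groups were DkXTH10, DkXTH2 and DkXTH11. DESeq2 called DkXTH10, a low DkXTH11 unigene (Cluster-16487.132712, 2.03 FPKM in CO2 fruit) and a low AtXTH30-like unigene (Cluster-16487.215222, 1.45 FPKM in CO2 fruit).

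The main DkXTH9 unigene measured 172, 188 and 167 FPKM in CO2+1-MCP fruit, against 708, 417 and 280 FPKM in CO2 fruit (log2 -1.63 ± 0.47 SE, edgeR adjusted p = 0.415). DkXTH6 measured 7.66, 7.25 and 12.2 FPKM in CO2+1-MCP fruit, against 22.8, 21.9 and 19.0 FPKM in CO2 fruit (log2 -1.43 ± 0.35 SE, edgeR adjusted p = 0.282). Neither pair of groups overlapped. Over all 7 groups the edgeR adjusted p was 0.00822 for DkXTH9 (Cluster-16487.110874) and 0.0347 for DkXTH6 (Cluster-16487.180837), with fold changes of 3.34 and 2.87, under the limit of 5. DESeq2 gave adjusted p values of 0.0871 and 0.0149.

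DkXTH1 and DkXTH4 ran the other way, with 1 library apart. DkXTH1 measured 118, 38.9 and 177 FPKM in CO2+1-MCP fruit, against 26.2, 45.0 and 60.1 FPKM in CO2 fruit (log2 1.16 ± 0.50 SE, edgeR adjusted p = 0.827). DkXTH4 measured 75.9, 35.8 and 92.5 FPKM in CO2+1-MCP fruit, against 21.2, 35.7 and 60.5 FPKM in CO2 fruit (log2 0.64 ± 0.41 SE, edgeR adjusted p = 0.999). In both, CO2+1-MCP replicate B lay within the range of CO2 fruit, and the same library was low for the AtXTH28-like unigene Cluster-16487.125898, at 109, 25.01 and 117 FPKM in CO2+1-MCP fruit against 147, 95.7 and 96.0 FPKM in CO2 fruit. With this library left out of the fit over all 7 groups, edgeR called 2 members, DkXTH10 and DkXTH2.

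CO2+1-MCP fruit were also set against CK fruit at 4 d. In this comparison DkXTH4 and DkXTH11 were higher in CO2+1-MCP fruit, and DkXTH10 was higher by less than the fold limit. Of 73 members tested, edgeR called 2 higher, against 0.177% of all unigenes, and 0 lower, against 0.0249%. At an unadjusted p below 0.05 there were 19 members, beside 8260 of the 64312 unigenes tested. DESeq2 called 3 members higher and 1 lower, beside 678 unigenes higher and 542 lower. DkXTH4 measured 75.9, 35.8 and 92.5 FPKM in CO2+1-MCP fruit, against 6.19, 7.23 and 7.14 FPKM in CK fruit (log2 3.13 ± 0.33 SE, edgeR adjusted p = 0.0354). DkXTH11 measured 17.6, 14.6 and 23.0 FPKM in CO2+1-MCP fruit, against 2.50, 2.29 and 2.96 FPKM in CK fruit (log2 2.68 ± 0.26 SE, edgeR adjusted p = 0.0284). No libraries overlapped between the groups in either member.

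DkXTH10 measured 666, 637 and 641 FPKM in CO2+1-MCP fruit, against 134, 130 and 123 FPKM in CK fruit, a fold change of 4.56 (log2 2.19 ± 0.14 SE, edgeR adjusted p = 0.0178). The comparison uses the same CK libraries as the one of CO2 with CK, in which DkXTH10 had a log2 fold change of 6.19, so the 2 values are not independent. The count of 2 became 0 without any 1 of the CK 4 d libraries or without CO2+1-MCP 4 d replicate A or C, and 3 without replicate B.

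**Figure D3:**
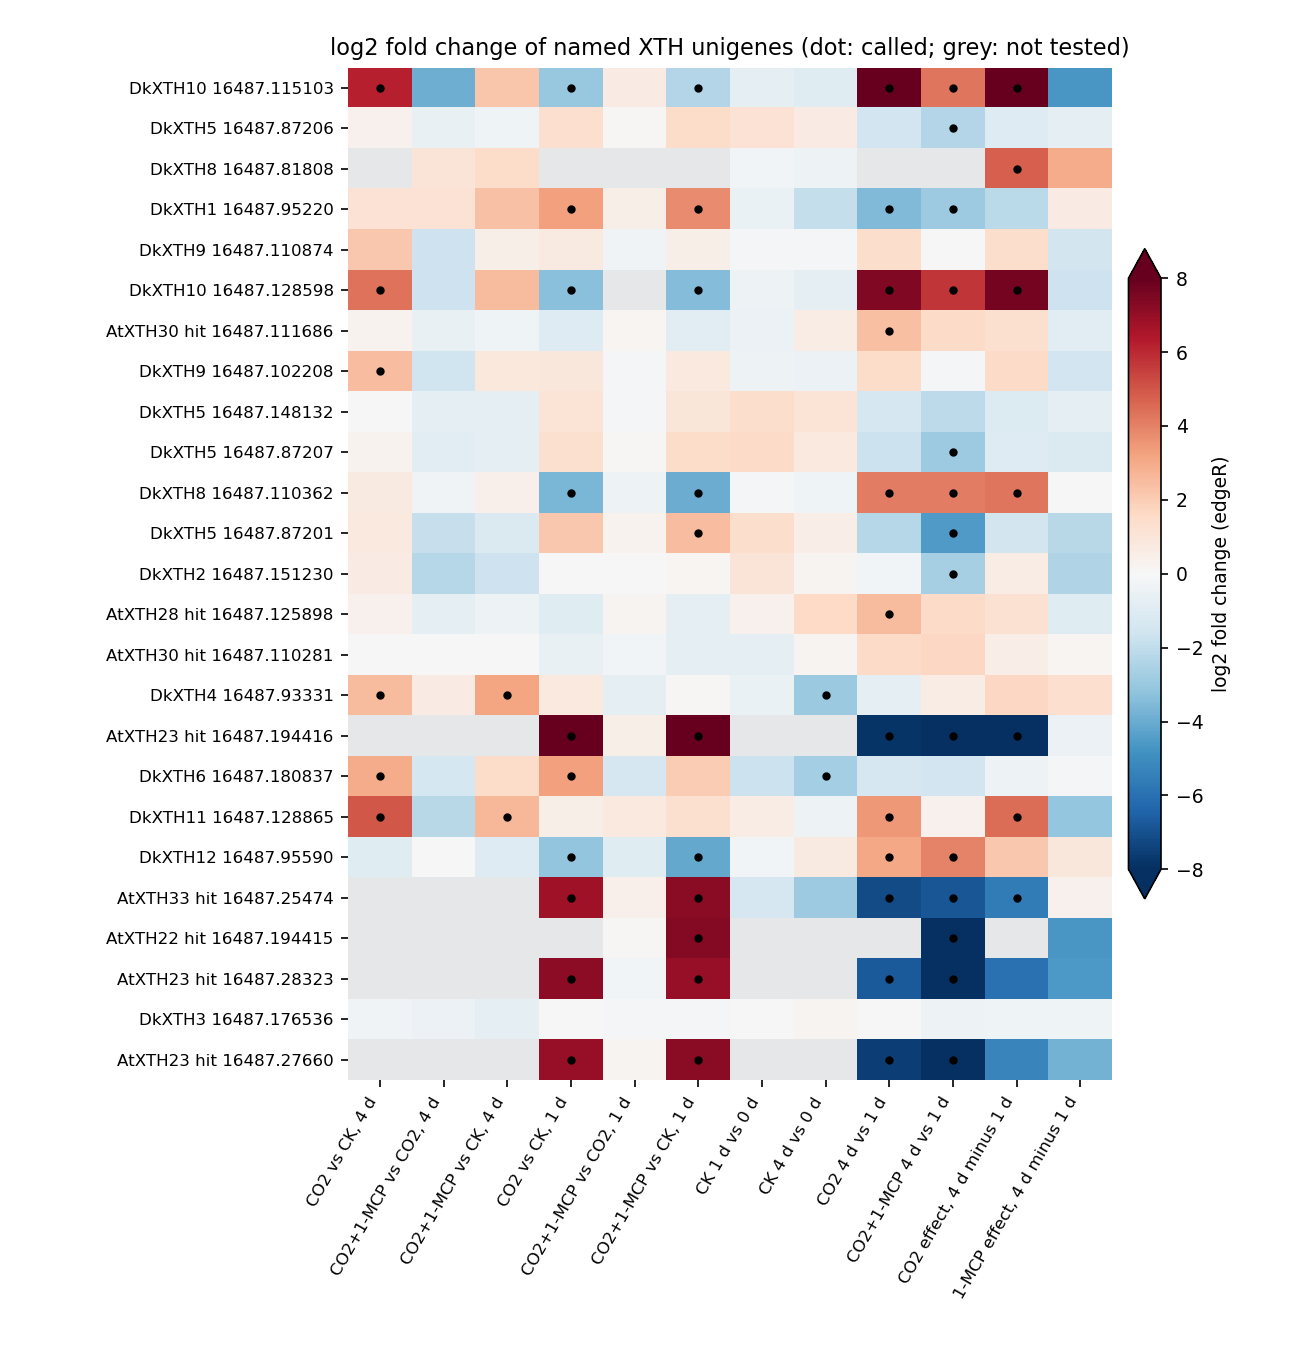
Log2 fold change in edgeR (colour, cut at 8 on either side) of 25 XTH unigenes (rows, with persimmon name or closest Arabidopsis entry) in the 10 pairwise comparisons and the 2 differences between times (columns). A dot marks a call and grey a unigene not tested, and no dot stands in the columns of CO2+1-MCP against CO2, of the 1-MCP effect or of CK at 1 d against 0 d.

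At 1 d, at the end of treatment, CO2 fruit were compared with CK fruit. The members that differed went both ways. Of the unigenes without a persimmon name, 4 closest to AtXTH23 of group II (Cluster-16487.194416, Cluster-16487.195850, Cluster-16487.27660 and Cluster-16487.28323) and 3 closest to AtXTH33 of group III-B (Cluster-16487.25474, Cluster-16487.25475 and Cluster-16487.25476) were at or near 0 in CK fruit and were called higher in CO2 fruit, and these are meant by AtXTH23-like and AtXTH33-like below. AtXTH33 differs from other Arabidopsis XTHs in being held at the plasma membrane. DkXTH1, DkXTH6 and DkXTH5 were also higher, and DkXTH12, DkXTH8 and DkXTH10 were lower. Of 73 members tested, edgeR called 13 higher, against 10.8% of all unigenes tested, and 10 lower, against 9.19%. The median log2 fold change of the members was 0.49, against -0.05 for all unigenes. It was 0.67 over the 61 tested members with an XTH name and -0.49 over the 12 without one.

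The AtXTH23-like unigene Cluster-16487.194416 measured 127, 70.7 and 59.3 FPKM in CO2 fruit, against 0, 0.23 and 0.44 FPKM in CK fruit at 1 d (log2 8.45 ± 0.76 SE, edgeR adjusted p = 0.000539). Another, Cluster-16487.195850, had 392 counts in CO2 fruit and none in CK fruit, and was at least 154-fold higher against a floor of 3 counts over the group. The AtXTH33-like unigene Cluster-16487.25474 measured 46.6, 38.3 and 29.0 FPKM in CO2 fruit, against 0.40, 0.34 and 0.31 FPKM in CK fruit (log2 6.76 ± 0.35 SE, edgeR adjusted p = 9.80e-05). These unigenes were named for large changes or added after their values were seen, so the lack of overlap between the groups is no separate result. A second AtXTH33-like unigene, Cluster-16487.25476, measured 12.7, 11.7 and 12.4 FPKM in CO2 fruit, against 0.05, 0.30 and 0.03 FPKM in CK fruit.

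The AtXTH23-like unigenes did not all move together within a group. In CO2 1 d replicate C, Cluster-16487.28323 stood at 42.9 FPKM, against 13.7 and 10.1 FPKM in replicates A and B. In the same library the AtXTH22-like unigene Cluster-16487.194415 was at 0, against 62.0 and 33.7 FPKM in A and B. Whether reads of near-identical copies were divided differently between libraries was not tested, and the split of this subgroup into single unigenes is uncertain for that reason.

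DkXTH1 (Cluster-16487.95220) measured 497, 478 and 464 FPKM in CO2 fruit, against 41.5, 49.3 and 50.7 FPKM in CK fruit at 1 d (log2 3.31 ± 0.16 SE, edgeR adjusted p = 8.94e-05). Among the called members it was the most abundant in CO2 fruit. DkXTH6 measured 63.6, 45.8 and 52.9 FPKM in CO2 fruit, against 3.31, 7.56 and 5.36 FPKM in CK fruit (log2 3.29 ± 0.35 SE, edgeR adjusted p = 0.000950). Of the 10 tested unigenes of DkXTH5, 2 were called higher and 0 lower, with a median log2 fold change of 1.31. The most abundant of them, Cluster-16487.87206, measured 529, 550 and 512 FPKM in CO2 fruit, against 149, 230 and 261 FPKM in CK fruit, a fold change of 2.50 (edgeR adjusted p = 0.00528) and thus under the limit. This unigene has 316 bases and rested on 1334 counts in CO2 fruit.

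In the other direction, DkXTH10 (Cluster-16487.115103) measured 14.9, 21.6 and 16.4 FPKM in CO2 fruit, against 95.2, 142 and 184 FPKM in CK fruit at 1 d (log2 -3.04 ± 0.27 SE, edgeR adjusted p = 0.000506). DkXTH8 (Cluster-16487.110362) measured 8.06, 10.9 and 9.06 FPKM in CO2 fruit, against 116, 116 and 102 FPKM in CK fruit (log2 -3.64 ± 0.17 SE, edgeR adjusted p = 7.89e-05). All 5 tested unigenes of DkXTH12 were called lower by edgeR, with a median log2 fold change of -3.16. The most abundant, Cluster-16487.95590, measured 2.37, 1.39 and 1.90 FPKM in CO2 fruit, against 14.1, 19.9 and 15.6 FPKM in CK fruit. The DkXTH8 and DkXTH12 unigenes named here are 3124 and 4800 bases long, and whether they hold sequence of other transcripts was not tested. Another DkXTH8 unigene, Cluster-16487.109506 of 3453 bases, was also called lower (log2 -2.83), and NR names it as a splicing factor.

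CO2+1-MCP fruit against CK fruit at 1 d gave a list of the same size. Of 75 members tested, edgeR called 14 higher, against 9.26% of all unigenes tested, and 9 lower, against 8.29%. The CK libraries are the same as in the comparison of CO2 with CK, so the values below stand beside those above and are not independent of them. Cluster-16487.194416 measured 201, 102 and 59.4 FPKM in CO2+1-MCP fruit, against 0, 0.23 and 0.44 FPKM in CK fruit (log2 8.97 ± 0.85 SE). DkXTH1 measured 797, 739 and 401 FPKM in CO2+1-MCP fruit, against 41.5, 49.3 and 50.7 FPKM in CK fruit (log2 3.81 ± 0.33 SE, edgeR adjusted p = 0.000685). DkXTH6 missed the fold limit here, at 19.5, 14.2 and 31.5 FPKM in CO2+1-MCP fruit against 3.31, 7.56 and 5.36 FPKM in CK fruit (fold change 4.03, edgeR adjusted p = 0.00930).

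The direct comparison of CO2+1-MCP fruit with CO2 fruit at 1 d found no member past the limits. Of 66 members tested, edgeR called 0 higher, against 0% of all unigenes, and 0 lower, against 0%. At an unadjusted p below 0.05 there were 5 members, beside 4167 of the 56191 unigenes tested, and DESeq2 called 0 members, beside 94 unigenes higher and 197 lower. DkXTH6 had the lowest adjusted p, with 19.5, 14.2 and 31.5 FPKM in CO2+1-MCP fruit against 63.6, 45.8 and 52.9 FPKM in CO2 fruit (log2 -1.32 ± 0.31 SE, edgeR adjusted p = 0.407). DkXTH4 measured 39.5, 35.5 and 33.1 FPKM in CO2+1-MCP fruit, against 61.0, 59.2 and 63.3 FPKM in CO2 fruit (log2 -0.73 ± 0.17 SE, edgeR adjusted p = 0.411). In both members the groups did not overlap, and DESeq2 gave an adjusted p of 0.0133 for DkXTH6 (Cluster-16487.180837) and 0.0146 for DkXTH4 (Cluster-16487.93331), at fold changes of 2.46 and 1.63, under the limit of 5.

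**Figure D4:**
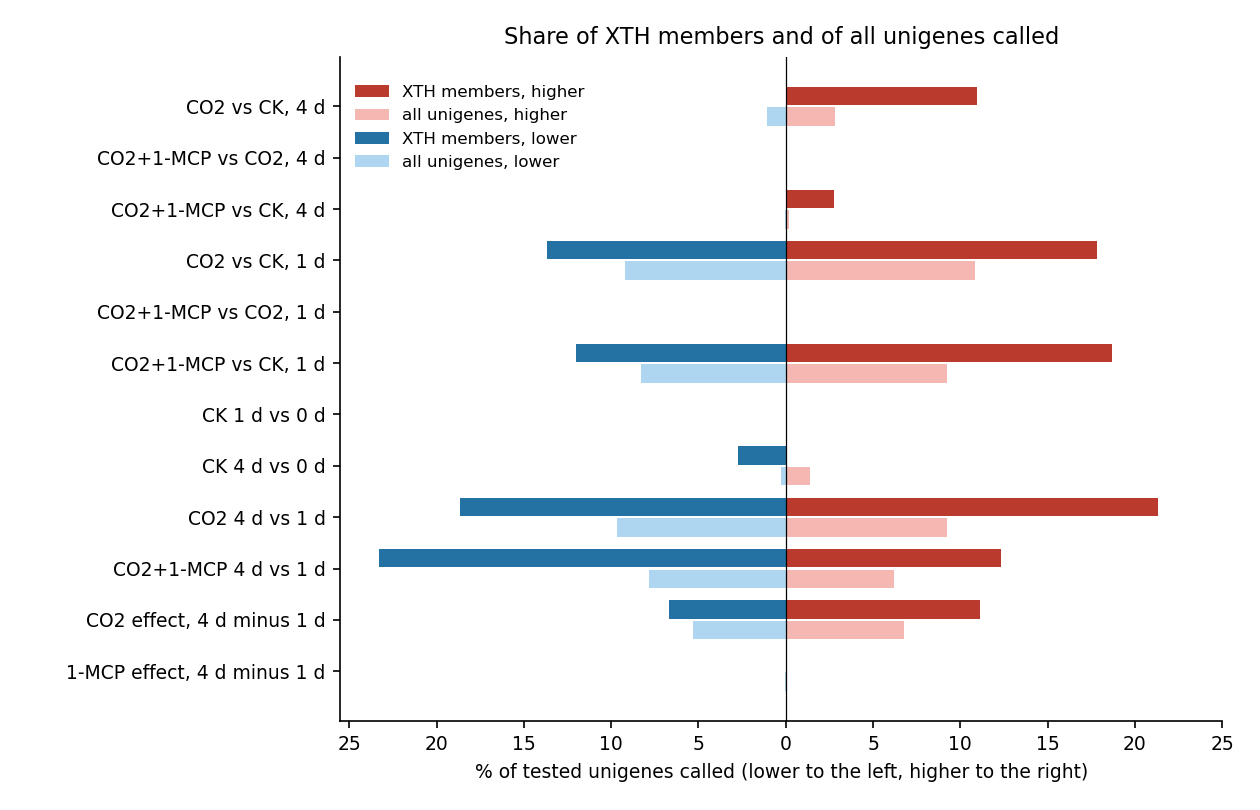
Share of tested XTH members (dark bars) and of all tested unigenes (pale bars) called by edgeR in each comparison (rows), with lower to the left in blue and higher to the right in red, in percent. At 4 d, 8 of 73 members were called higher in CO2 than in CK fruit beside 2.81% of all unigenes, and the comparisons of CO2+1-MCP with CO2 have no bars.

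The effect of CO2 relative to CK was then compared between the 2 times. In the test of the difference itself, unigenes of DkXTH10, DkXTH8 and DkXTH11 had a higher log2 fold change at 4 d than at 1 d, whereas 1 AtXTH23-like unigene (Cluster-16487.194416) and 1 AtXTH33-like unigene (Cluster-16487.25474) had a lower one. Of 90 members tested over 12 libraries, edgeR called 10 with a higher effect at 4 d, against 6.79% of all unigenes tested, and 6 with a lower effect, against 5.33%. For DkXTH10 the difference was 9.18 ± 0.78 SE on the log2 scale for Cluster-16487.115103 (edgeR adjusted p = 8.44e-05) and 7.65 ± 0.83 SE for Cluster-16487.128598 (edgeR adjusted p = 0.000255). For DkXTH11 (Cluster-16487.128865) it was 4.44 ± 0.83 SE (edgeR adjusted p = 0.00452), and for DkXTH8 (Cluster-16487.110362) it was 4.31 ± 0.31 SE (edgeR adjusted p = 4.10e-05). For Cluster-16487.194416 it was -8.42 ± 1.82 SE, and for Cluster-16487.25474 it was -5.62 ± 1.10 SE. The other 4 with a lower effect were a DkXTH3 unigene (Cluster-16487.176535, -4.55), Cluster-16487.26070 without an XTH name (-3.86), a DkXTH5 unigene (Cluster-16487.87203, -2.91) and a DkXTH1 unigene (Cluster-16487.103641, -2.46). Those with a higher effect also included a DkXTH9 unigene (Cluster-16487.102209, log2 fold changes of 0.04 at 1 d and 2.60 at 4 d) and a DkXTH12 unigene (Cluster-16487.97566, -7.66 and -1.84). So did the DkXTH8 unigene that NR names as a splicing factor (Cluster-16487.109506, -2.83 and 0.004) and Cluster-16487.75073, without counts in CO2 fruit at 1 d. DkXTH6, called at both times, had a difference of -0.39 ± 0.50 SE (edgeR adjusted p = 0.657).

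Of the 62 members tested at both times, 23 had positive log2 fold changes at both, 19 negative ones at both, 10 were negative at 1 d and positive at 4 d, and 10 were positive at 1 d and negative at 4 d. Another DkXTH8 unigene, Cluster-16487.81808 of 202 bases, was among those called, on 37 counts in CO2 fruit and 29 in CK fruit at 4 d and on 1 and 28 counts at 1 d. The number called with a different effect was 10 in all without CK 4 d replicate A, in place of 16.

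**Figure D5:**
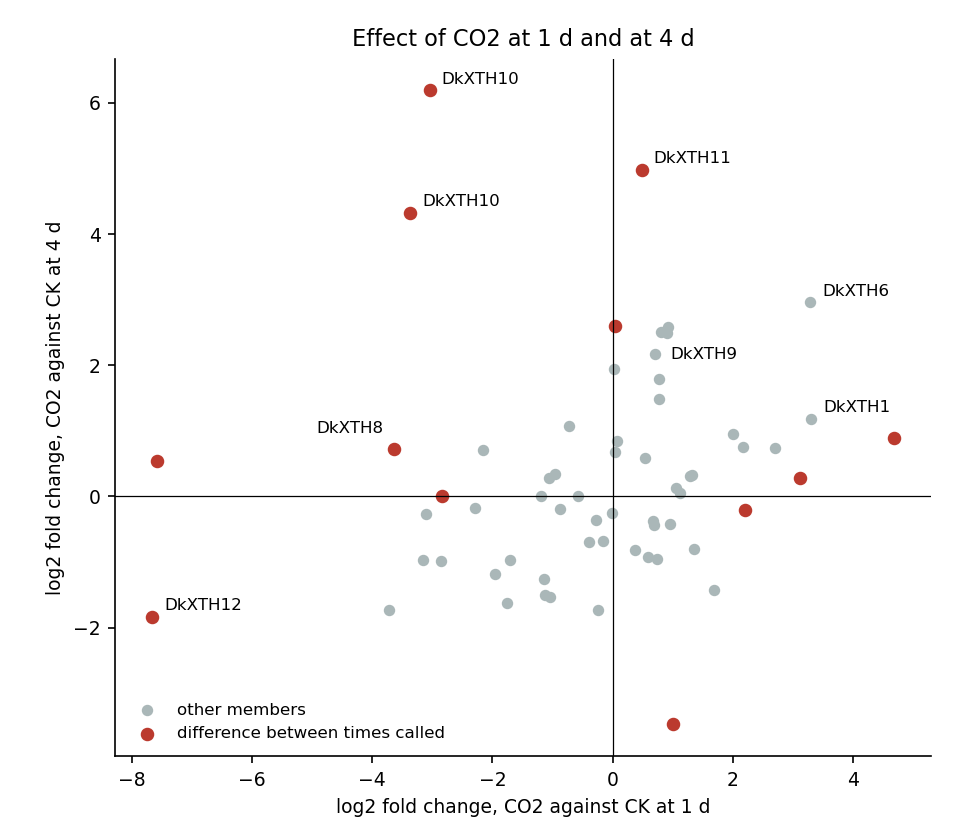
Log2 fold change of CO2 against CK at 1 d (x axis) and at 4 d (y axis) for the 62 members tested at both times, with red points for members whose difference between times was called by edgeR. The upper DkXTH10 point stands at -3.04 at 1 d and 6.19 at 4 d, and the other DkXTH10 unigene at -3.37 and 4.33.

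The corresponding difference for 1-MCP, that is, the effect of adding 1-MCP at 4 d minus that at 1 d, gave no call in edgeR. It called 0 of 89 members with a higher effect at 4 d, against 0.00516% of all unigenes tested, and 0 with a lower effect, against 0.022%. At an unadjusted p below 0.05 there were 16 members, beside 7024 of the 77447 unigenes tested. DESeq2 called 4 lower, against 1.24% of all unigenes tested, and edgeR over all 7 groups called 3 lower, against 0.45%. The 3 were DkXTH10, DkXTH11 and DkXTH2, with differences of -4.67 ± 0.77 SE, -3.11 ± 0.73 SE and -2.41 ± 0.42 SE on the log2 scale and adjusted p values of 0.0678, 0.181 and 0.0792 in the edgeR fit of 12 libraries. Without CO2 4 d replicate C that fit called 3 members.

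Within a treatment, the XTH pool turned over between 1 d and 4 d. In CO2 fruit at 4 d against 1 d, edgeR called 16 of 75 tested members higher, against 9.22% of all unigenes tested, and 14 lower, against 9.66%. In CO2+1-MCP fruit it called 9 of 73 higher, against 6.18%, and 17 lower, against 7.8%. DkXTH10 measured 13922, 6962 and 3783 FPKM in CO2 fruit at 4 d, against 14.9, 21.6 and 16.4 FPKM at 1 d (log2 8.97 ± 0.83 SE, edgeR adjusted p = 0.00158). In CO2+1-MCP fruit it measured 666, 637 and 641 FPKM at 4 d, against 14.3, 36.8 and 28.6 FPKM at 1 d (log2 4.29 ± 0.43 SE, edgeR adjusted p = 0.00296). DkXTH10 was therefore higher at 4 d than at 1 d in both treatments, with no overlap.

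DkXTH8 was likewise higher at 4 d than at 1 d in both treatments, with a log2 fold change of 4.11 ± 0.30 SE in CO2 fruit (edgeR adjusted p = 0.00107) and of 4.10 ± 0.39 SE in CO2+1-MCP fruit (edgeR adjusted p = 0.00253). Its 4 d levels of 137, 178 and 127 FPKM in CO2+1-MCP fruit and 155, 189 and 133 FPKM in CO2 fruit were near the 100, 106 and 102 FPKM of CK fruit. DkXTH2 was called lower at 4 d than at 1 d in CO2+1-MCP fruit (log2 -2.64 ± 0.33 SE, edgeR adjusted p = 0.00495), while in CO2 fruit its log2 fold change was -0.21 ± 0.25 SE (edgeR adjusted p = 0.571). DkXTH5 had 6 of 9 tested unigenes called lower at 4 d in CO2+1-MCP fruit and 2 of 10 in CO2 fruit. The number called in CO2+1-MCP fruit fell to 16 without CO2+1-MCP 1 d replicate A, in place of 26.

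The DkXTH5 unigenes described here are short, and how reads were divided among them is uncertain. Cluster-16487.87201, of 347 bases, measured 15.4, 9.20 and 11.4 FPKM in CO2+1-MCP fruit at 4 d, against 374, 119 and 209 FPKM at 1 d (log2 -4.56 ± 0.54 SE, edgeR adjusted p = 0.00439). Cluster-16487.87207, of 713 bases, measured 33.7, 42.5 and 27.3 FPKM in CO2+1-MCP fruit at 4 d, against 325, 105 and 219 FPKM at 1 d (log2 -2.90 ± 0.46 SE, edgeR adjusted p = 0.00927). In both, replicate B was the lowest library at 1 d. Cluster-16487.148132, of 341 bases, stayed under the fold limit at 4 d against 1 d in CO2+1-MCP fruit, with a fold change of 4.29 (edgeR adjusted p = 0.0449). DkXTH3 (Cluster-16487.176536), closest to AtXTH7 of group I, had means between 4.46 and 6.72 FPKM over the 7 groups and was called in no comparison. The AtXTH30-like unigene Cluster-16487.110281 was likewise not called at 4 d against 1 d, with log2 fold changes of 1.54 ± 0.23 SE in CO2 fruit and 1.68 ± 0.26 SE in CO2+1-MCP fruit.

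The 4 AtXTH23-like unigenes listed for 1 d and the AtXTH33-like Cluster-16487.25474 and Cluster-16487.25476 were each called lower at 4 d than at 1 d in both treatments. Cluster-16487.194416 measured 0.97, 0 and 0.14 FPKM in CO2 fruit at 4 d, against 127, 70.7 and 59.3 FPKM at 1 d. Cluster-16487.27660 had 845 counts in CO2+1-MCP fruit at 1 d and none at 4 d, and was at least 375-fold lower at 4 d. DkXTH1 measured 26.2, 45.0 and 60.1 FPKM in CO2 fruit at 4 d, against 497, 478 and 464 FPKM at 1 d (log2 -3.51 ± 0.29 SE, edgeR adjusted p = 0.00134). The AtXTH28-like unigene Cluster-16487.125898 and the AtXTH30-like unigene Cluster-16487.111686 of group III-B ran the opposite way in CO2 fruit, with log2 fold changes of 2.54 ± 0.34 SE and 2.41 ± 0.20 SE at 4 d against 1 d (edgeR adjusted p = 0.00370 and 0.00135).

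In CK fruit few XTH members were called. At 1 d against 0 d edgeR called 0 of 72 members higher, against 0.00829% of all unigenes tested, and 0 lower, against 0.00497%. At an unadjusted p below 0.05 there were 21 members, beside 8659 of the 60332 unigenes tested, and DESeq2 called 0 members, beside 85 unigenes higher and 95 lower. Without the fold limit DESeq2 had 6 members higher and 3 lower, beside 1674 and 1374 unigenes. DkXTH5 summed to 528 ± 155.5 FPKM in CK fruit at 1 d, against 230.5 ± 19.0 FPKM at 0 d (SD, n = 3 each). Its unigene Cluster-16487.87207 had a fold change of 2.91, under the limit of 5 (edgeR adjusted p = 0.0654, DESeq2 adjusted p = 3.25e-07). At 4 d against 0 d edgeR called 0 of 73 higher, against 1.37%, and 2 lower, against 0.299%, with 27 members at an unadjusted p below 0.05, beside 10880 of the 62794 unigenes tested. DESeq2 called 0 members higher and 3 lower, beside 1135 unigenes higher and 332 lower. The 2 were DkXTH4, at 6.19, 7.23 and 7.14 FPKM at 4 d against 52.1, 57.1 and 40.5 FPKM at 0 d (log2 -2.94 ± 0.17 SE, edgeR adjusted p = 0.00416), and DkXTH6, at 2.04, 3.78 and 2.89 FPKM at 4 d against 22.8, 14.7 and 17.1 FPKM at 0 d (log2 -2.72 ± 0.31 SE, edgeR adjusted p = 0.0116). Only 1 member was called without CK 4 d replicate A or C. DkXTH4 and DkXTH6 are also among the members called higher in CO2 fruit than in CK fruit at 4 d, and that comparison shares the CK 4 d libraries. Against CK fruit at 0 d, DkXTH4 in CO2 fruit at 4 d had a mean of 39.1 FPKM beside 49.9 FPKM, and DkXTH6 a mean of 21.2 FPKM beside 18.2 FPKM, pairs for which no test was made.

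Over the 7 groups the mean level of DkXTH10 (Cluster-16487.115103) was 8223 FPKM in CO2 fruit at 4 d, 648 FPKM in CO2+1-MCP fruit at 4 d, 239.5 FPKM in CK fruit at 0 d, 140.5 FPKM in CK fruit at 1 d, 129 FPKM in CK fruit at 4 d, 26.5 FPKM in CO2+1-MCP fruit at 1 d and 17.6 FPKM in CO2 fruit at 1 d. The libraries of the neighbours CK 0 d and CK 1 d overlapped, as did those of CK 1 d and CK 4 d and those of the 2 treatments at 1 d. By Arabidopsis group, group III-A summed to 919 ± 70.7 FPKM in CO2+1-MCP fruit and 9093 ± 5503 FPKM in CO2 fruit, against 218 ± 10.01 FPKM in CK fruit at 4 d (SD, n = 3 each). Group II summed to 1334 ± 524 FPKM in CO2+1-MCP fruit and 2087 ± 570 FPKM in CO2 fruit, against 1062 ± 109 FPKM in CK fruit. Group III-B differed less, with 376 ± 37.0 FPKM in CO2+1-MCP fruit and 511 ± 20.2 FPKM in CO2 fruit, against 389 ± 14.8 FPKM in CK fruit. Only 3 of the 15 group III-A members had enough reads to be tested at 4 d, and both of those called carried the DkXTH10 name.

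Other genes of xyloglucan and wall loosening were counted beside the XTHs. Xyloglucan synthesis genes, which encode the Golgi enzymes that build the backbone and its side chains, were called 1 higher and 10 lower of 24 tested in CO2 fruit against CK fruit at 1 d, with a median log2 fold change of -2.21. In CO2+1-MCP fruit against CK fruit at 1 d they were 1 higher and 12 lower of 23. At 4 d edgeR called 0 of 25 in CO2 fruit against CK fruit, with 4 at an unadjusted p below 0.05 and 1 lower by DESeq2. Their summed level was 172 ± 112 FPKM in CO2+1-MCP fruit and 237 ± 38.1 FPKM in CO2 fruit, against 890.5 ± 173 FPKM in CK fruit at 1 d (SD, n = 3 each).

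Xyloglucan side-chain hydrolases (α-xylosidases and α-L-fucosidases), which trim xyloglucan fragments, were 0 higher and 3 lower of 13 tested in CO2 fruit against CK fruit at 1 d, with 11 at an unadjusted p below 0.05 in edgeR, beside 29788 of the 60190 unigenes tested. DESeq2 gave the same counts for the list, beside 6776 unigenes higher and 5991 lower. At 4 d edgeR and DESeq2 called 0 of 14, with 4 at an unadjusted p below 0.05 in edgeR. GH9 endoglucanases, which cut β-1,4-glucans, were 2 higher and 4 lower of 21 at 1 d and 1 higher and 1 lower of 20 at 4 d. Expansins, which loosen the contact of xyloglucan with cellulose without cutting it, were 3 higher and 9 lower of 30 at 1 d and 8 higher and 0 lower of 34 at 4 d in CO2 fruit against CK fruit. DESeq2 called 11 expansins higher and 0 lower at 4 d, beside 2557 higher and 1398 lower of the 63046 unigenes tested, and 16 expansins had an unadjusted p below 0.05 in edgeR, beside 15025 unigenes. In CO2+1-MCP fruit against CO2 fruit at 4 d edgeR called 0 of 35 expansins, with 18 at an unadjusted p below 0.05, beside 3883 of 62228 unigenes, and 11 lower by DESeq2, beside 1163 unigenes. The shares of all unigenes called by edgeR in each comparison are those given above.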

How the data were processed

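Flesh RNA-seq libraries of 7 groups with 3 replicates each were analysed as deposited, 21 libraries in all. The authors assembled the paired reads into unigenes with Trinity and annotated them, and the submitters' processing notes name RSEM. The deposited expected counts are reads assigned to each unigene, not normalized, and were rounded to whole numbers here. The deposited FPKM values, scaled by the authors for length and depth, were used for levels only. No genome build or coordinate applies to these unigenes, and no sequence is printed.

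Pairs of groups were compared over all unigenes with edgeR 4.0.16 (R 4.3.3): filterByExpr, TMM and the quasi-likelihood F test with Benjamini-Hochberg adjustment, with a call where the adjusted p was under 0.05 and the fold exceeded 5, the limits stated in the study's methods. Differences between times were contrasts in fits of 12 libraries. A group without counts was set to a floor of 3 counts, which covers counting error only. On simulated counts with a set spread the edgeR step was tested for recovery of known changes. The spread was larger than any simulated in every pairwise comparison that held CO2 or CO2+1-MCP fruit at 4 d. It was also larger in both differences between times and in the fit over all 7 groups, so that test does not cover these fits. The alternatives were RLE scaling, DESeq2 1.42.0, no filter, all 7 groups in one fit, a replicate block, any fold change, and leaving out each library. Expansins and chlorophyll a-b binding proteins were matched by NR name after the Pfam domains first listed had matched no unigene.

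Members described singly were the 15 with the highest mean FPKM, up to 3 called members per comparison and direction with the largest changes among those reaching a mean of 10 FPKM, the up to 3 largest called differences between times, and the most abundant unigene of each persimmon name. Cluster-16487.102209, Cluster-16487.124358, Cluster-16487.195850, Cluster-16487.25475, Cluster-16487.25476, Cluster-16487.109506, Cluster-16487.132712, Cluster-16487.215222, Cluster-16487.176535, Cluster-16487.26070, Cluster-16487.87203, Cluster-16487.103641, Cluster-16487.97566 and Cluster-16487.75073 were added after their values were seen. The members and lists were chosen with earlier results of these data known. Letters A, B and C were not treated as pairs, since in none of the 10 comparisons did same-letter libraries deviate together in all 3 letters (a correlation over 0.1 in each).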

Additional observations from a re-analysis of the deposited data

Results flagged for a closer look

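For 7 of the named members the effect of CO2 relative to CK differed between 4 d and 1 d in the edgeR test of the difference itself, with a fold change above 5. A higher effect at 4 d was found for DkXTH10, with differences of 9.177 (Cluster-16487.115103) and 7.648 (Cluster-16487.128598) on the log2 scale, for DkXTH11 with 4.441 (Cluster-16487.128865), and for DkXTH8 with 4.305 (Cluster-16487.110362) and 4.762 (Cluster-16487.81808). The last of these has 202 bases and rested on 37 counts in CO2 fruit and 29 in CK fruit at 4 d, and on 1 count in CO2 fruit and 28 in CK fruit at 1 d, and it was not called without the filter on low counts or in the fits without CK 4 d replicate A, B or C. A lower effect at 4 d was found for the AtXTH23-like Cluster-16487.194416, with -8.424, and the AtXTH33-like Cluster-16487.25474, with -5.623. Both were at or near 0 FPKM in every group other than the 2 treatments at 1 d.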

How the results depend on the processing

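Among the 25 named members, no log2 fold change changed sign in 2227 alternative values over the 168 tests that had an unadjusted p below 0.05 or a call in any fit. Values near 0 outside these tests did change sign, such as that of Cluster-16487.110281 for CO2+1-MCP against CO2 at 4 d, 0.03 in the fit of 6 libraries and -0.04 over all 7 groups. Numbers of called members moved as follows. For CO2 against CK at 4 d, where 8 were called, 15 were called at any fold and 0 to 9 with 1 library left out. For CO2+1-MCP against CO2 at 4 d, where none was called, 3 were called with all 7 groups in one fit, 2 when CO2+1-MCP 4 d replicate B was also left out, 5 without the filter, 3 by DESeq2, and 0 with any 1 library left out. For CO2+1-MCP against CK at 4 d, DESeq2 called 4 in place of 2, and leaving out 1 library gave 0 to 3. At 1 d, CO2 against CK gave 44 at any fold in place of 23 and 21 to 26 with 1 library left out, and CO2+1-MCP against CO2 gave 1 without the filter. CK at 4 d against 0 d gave 9 at any fold in place of 2, and 1 to 3 with 1 library left out. Leaving out 1 library gave 25 to 29 for CO2 at 4 d against 1 d, 16 to 28 for CO2+1-MCP at 4 d against 1 d, 20 to 23 for CO2+1-MCP against CK at 1 d, and 10 to 18 for the CO2 effect at 4 d minus 1 d, which was 25 at any fold. For the 1-MCP effect, all 7 groups gave 3, all 7 without CO2+1-MCP 4 d replicate B gave 2, no filter gave 4, DESeq2 gave 4, and leaving out 1 library gave 0 to 3. The causes were not tested, and numbers over all unigenes with 1 library left out are not given beside these.

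With the letters as a replicate block, the numbers were 0 for CO2 against CK at 4 d, 0 for CO2+1-MCP against CK at 4 d, 0 for CK at 4 d against 0 d and 15 for CO2+1-MCP at 4 d against 1 d. In each comparison with 0 members, the same fit called 0 of all unigenes higher and 0 lower. For CO2+1-MCP at 4 d against 1 d it called 914 unigenes higher and 1594 lower of 59934 tested. All 7 groups with the block, chosen after seeing the data, gave 2 for CO2+1-MCP against CO2 at 4 d and 2 for the 1-MCP effect. The block moved no other number by more than 1.5 times. Same-letter libraries did not deviate together throughout. In CO2+1-MCP against CO2 at 4 d the correlation of their deviations was 0.355 for B and 0.292 for C, beside 0.00547 for A. Whether same-letter libraries had a shared origin was not tested.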

Other observations

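In CO2 fruit at 4 d the members did not share 1 order of libraries. Of the 28 members with a mean of at least 10 FPKM there, 12 were highest in replicate A, then B, then C, among them DkXTH10, DkXTH9 and DkXTH11. Another 6 were in the reverse order, among them DkXTH1, DkXTH4 and the AtXTH30-like Cluster-16487.111686. In CO2+1-MCP fruit at 4 d, 15 of 24 such members were highest in replicate B.

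Outside the rule, 47 unigenes carried the GH16 domain PF00722 or an NR name beginning with xyloglucan endotrans, and 23 of these were named xyloglucan endotransglycosylase. They were not analysed here.

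Among the 31 members with no XTH name, Cluster-16487.26070, for which NR gave no hit, was called higher in CO2 fruit than in CK fruit at 1 d, at 29.1, 15.1 and 18.01 FPKM against 0.31, 0.84 and 1.23 FPKM (log2 4.68 ± 0.56 SE, edgeR adjusted p = 0.00151). It was chosen after its values were seen.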
